A study of Mus musculus with 18 samples.

Results

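Clones whose VH186.2 heavy chain carried W33L, the exchange of tryptophan 33 for leucine, were compared with the clones of the same mouse that did not. Carriers were selected on a measured change, G98T in codon 33 (nucleotides 97 to 99), and every other mutated clone was a non-carrier. Per iteration of the clonal sampling, 390.3 of 1939.6 mutated clones were carriers (20.1%), and they came from 3998 of 20618 distinct sequences. All 3 nucleotides of codon 33 were left out of the values compared, so that the change that defined a carrier entered none of them.

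VH186.2 (IGHV1-72*01, gene symbol Ighv1-72) is the heavy chain segment that dominates the response of C57BL/6 mice to the hapten NP. During somatic hypermutation, AID deaminates cytosines, preferentially in WRC/GYW motifs, and the error-prone processing of the resulting mismatches by mismatch repair and Polη adds mutations at A:T pairs, preferentially in WA/TW motifs. EXO1 is the exonuclease that resects DNA during mismatch repair. W33L is the exchange best known for raising the affinity of VH186.2 antibodies for NP, and clones with it are favoured in germinal centres.

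The mice were C57BL/6 animals of matched age, immunized intraperitoneally with NP(33)-CGG on alum, and spleens were taken on day 10 of the primary response. Exo1+/+ mice (n = 7) were wild type, Exo1DA/DA mice (n = 8) were homozygous for the knock-in of D173A, which removes the nuclease activity but leaves the protein, and Exo1-/- mice (n = 3) were null. RNA of whole splenocytes was used, without a sort for germinal centre or NP-binding cells. An entry of the deposited lists is 1 mutation of 1 sequence drawn for a CDR3 clone, and the share of the 1000 iterations in which a sequence was drawn served as its weight. A clone without any mutation has no entry. A carrier therefore could have 0 other mutations, whereas a non-carrier had to have at least 1 somewhere.

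The letters around codon 33 show what separates the classes. The capitals mark codon 33 and any further exchange named, in nucleotides 70 to 120 of the coding strand, as rebuilt from the germline bases of the lists. The forms shown are the germline, the common form of the carriers, the form with a second change in the codon, and the forms with G77A and C93G, which were frequent in single mice.
Germline: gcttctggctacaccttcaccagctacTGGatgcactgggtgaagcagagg
W33L: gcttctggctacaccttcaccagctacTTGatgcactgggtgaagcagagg
W33L with G99A: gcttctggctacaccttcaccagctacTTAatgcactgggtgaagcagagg
W33L with G77A: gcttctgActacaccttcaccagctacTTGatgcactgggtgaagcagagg
W33L with C93G: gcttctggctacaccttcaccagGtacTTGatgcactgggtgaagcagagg
In 89.7% of the carriers the codon was TTG. A further 10.3%, or 40.3 clones, had TTA, also a leucine codon, and 35.8 of these were in the Exo1+/+ mouse with the dataset number 290. Mice are named here by the dataset numbers of the lists, which are not linked to the animal numbers of the labels. G77A accompanied W33L in 41.0 clones of the Exo1DA/DA mouse 296 and in 19.4 clones of the Exo1+/+ mouse 289, and in at most 1.00 clone of any other compared mouse. C93G accompanied it in 28.5 clones of mouse 290 and in 1.01 clones of mouse 289. Of the non-carriers, 99.6% had the germline codon TGG.

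The carriers were spread unevenly over the mice. Their share of the mutated clones was 1.51% in the lowest, 16.0% in the median and 64.8% in the highest Exo1+/+ mouse, and 0.927%, 4.02% and 50.2% in Exo1DA/DA mice. In the Exo1-/- mice it was 0.787%, 1.90% and 32.4%. The ranges of the genotypes overlapped, but the Exo1+/+ mice 284, 285 and 290 (64.8%, 39.5% and 62.2%) were above every Exo1-/- mouse. As the carriers were chosen by this change, its share was not tested. Comparisons within a mouse were restricted to mice with at least 5 clones of each class. They were the Exo1+/+ mice 284, 285, 287, 288, 289 and 290, the Exo1DA/DA mice 296, 297 and 299, and the Exo1-/- mouse 295, with 378.6 carriers and 808.5 non-carriers. Mouse 287, with 5.57 carriers, was the closest to the limit inside it, and the Exo1DA/DA mouse 303, with 2.27, the closest outside.

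Several mice shared sequences. Of the carriers with at least 6 mutations, codon 33 included, 35.1% were identical to a carrier of another mouse, and of such non-carriers 35.3% were identical to a clone of another mouse. All 7 of these carrier sequences, together 16.0 clones, were shared by mouse 289 (Exo1+/+) and mouse 296 (Exo1DA/DA). Among lighter clones, W33L with C180T and A294T and no other change was present in 12 of the 18 mice and in all 3 genotypes. It amounted to exactly 1.00 clone in 7 of them, to less than 1 clone in 4 and to 9.21 clones in the Exo1DA/DA mouse 299. C180T is silent in tyrosine 60, and A294T exchanges arginine 98 at the end of the segment for serine. The capitals show C180T in nucleotides 166 to 201 and A294T in the last 18 nucleotides of the lists.
C180T: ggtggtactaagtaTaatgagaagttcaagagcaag
A294T: gtctattattgtgcaagT
Clones with both changes made up 6.28% of all carriers but 39.2% of the 11.6 carriers in the 8 mice below the limit of 5 clones. Non-carriers with both changes amounted to 6.47 clones, of which mouse 299 had 6.04. Altogether, 48.7% of the carriers and 40.7% of the non-carriers with at least 2 other mutations had a set of other mutations that was also found in another mouse. Mice with common sequences may not be fully independent, and values without these clones are given for the mutation load and, without similar sequences, for a number of positions.

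Carriers had fewer other mutations than non-carriers in each mouse. The mean was 1.98 ± 0.950 (SD, n = 10 mice) per carrier and 6.45 ± 2.39 per non-carrier, a difference of 4.47 mutations that was present in 10 of 10 mice (p = 0.00195, 2-sided exact permutation test over sign flips, adjusted p = 0.0137 over 7 measures). This p is the smallest that 10 mice can give.

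**Figure D1:**
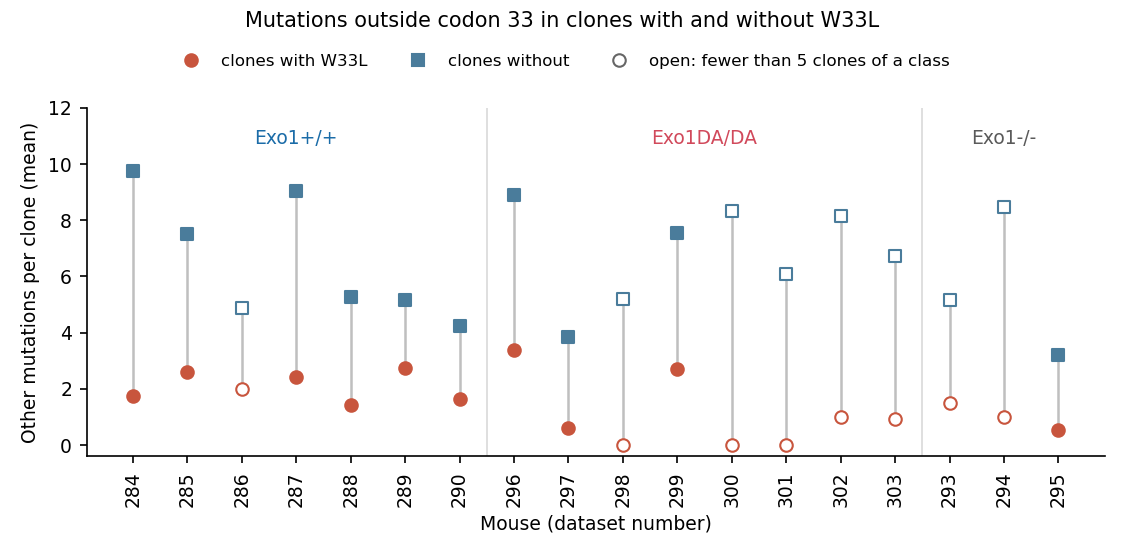
Mean number of mutations outside codon 33 per clone (y axis) for each of the 18 mice (x axis, by genotype), with circles for clones with W33L, squares for clones without and open symbols for mice with fewer than 5 clones of a class. The circle lies below the square in all 18 mice.

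In Exo1+/+ mice the carriers had 1.75, 2.58, 2.43, 1.41, 2.74 and 1.65 other mutations (mice 284, 285, 287, 288, 289 and 290). The non-carriers of the same mice had 9.75, 7.52, 9.03, 5.27, 5.18 and 4.22. Every carrier mean was below every non-carrier mean, so the means of the classes did not overlap in this genotype. Single clones did overlap. In mouse 289, 13.1% of the carriers had 6 or more other mutations, and the non-carriers of mouse 290 had a median of 3. In the Exo1DA/DA mice 296, 297 and 299 the carriers had 3.38, 0.611 and 2.72 and the non-carriers 8.92, 3.84 and 7.55 other mutations. In the Exo1-/- mouse 295 the values were 0.536 and 3.20. Mouse 295 and mouse 297 had the lowest values in both classes, and across genotypes the highest carrier value (mouse 296) was above the lowest non-carrier value (mouse 295).

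The same order held in the 8 mice below the limit of 5 clones, so that carriers were lower in 18 of 18 mice, although most of these had only 1 or 2 carriers. The 6 Exo1+/+ mice alone gave a difference of 4.73 ± 2.23 (p = 0.0312, exact permutation test, the smallest possible, adjusted p = 0.219), and the 3 Exo1DA/DA mice one of 4.53 ± 1.18 with a smallest possible p of 0.25. The difference of the Exo1+/+ mice minus that of the Exo1DA/DA mice was -0.20 mutations, which was less than the spread between mice (p = 0.857, exact permutation test over 84 divisions). Non-carriers had to have a mutation to be listed. With both classes limited to clones with at least 1 other mutation, the means were 2.54 ± 0.693 and 6.48 ± 2.35, again lower in 10 of 10 mice (p = 0.00195, exact permutation test). Without sequences similar to those of another mouse they were 1.73 ± 0.744 and 5.05 ± 2.62 (p = 0.00195), and without any set of at least 2 other mutations found in another mouse the difference was -4.29 in 9 mice (p = 0.00391, exact permutation test). Counting each distinct sequence 1 time reduced the difference to -2.54 and ended the call (adjusted p = 0.116, exact permutation test), and with each lineage counted at most 1 time it was -2.47 (adjusted p = 0.0273, exact permutation test). Without mice 289 and 296 it was -4.59 with an adjusted p of 0.0547, the lowest that 8 mice allow unless another measure also reaches the smallest p.

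The distributions differed at low and at high numbers of mutations. Carriers had 1 other mutation in 21.0% ± 11.9 and non-carriers in 13.8% ± 8.76, and 2 in 22.9% ± 14.3 and 12% ± 9.74 (higher in carriers in 8 of 10 mice each). Clones with 0 other mutations made up 25.8% ± 23.0 of the carriers. This class cannot be compared, since a non-carrier was listed in it only with another change of codon 33 (0.770% ± 1.29). Among carriers its share was highest in the Exo1-/- mouse 295 (71.7%) and in the Exo1DA/DA mouse 297 (57.7%) and lowest in the Exo1DA/DA mouse 296 (1.13%). Carriers with 6 to 9 other mutations made up 5.30% ± 6.39, against 22.0% ± 11.0 of the non-carriers. With 10 or more they made up 0.454% ± 1.01 against 26.4% ± 18.8, and no mouse had a higher share among its carriers in either of these classes. In the intermediate class of 3 to 5 mutations the shares were similar, with 24.6% ± 13.8 and 25.0% ± 11.1.

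**Figure D2:**
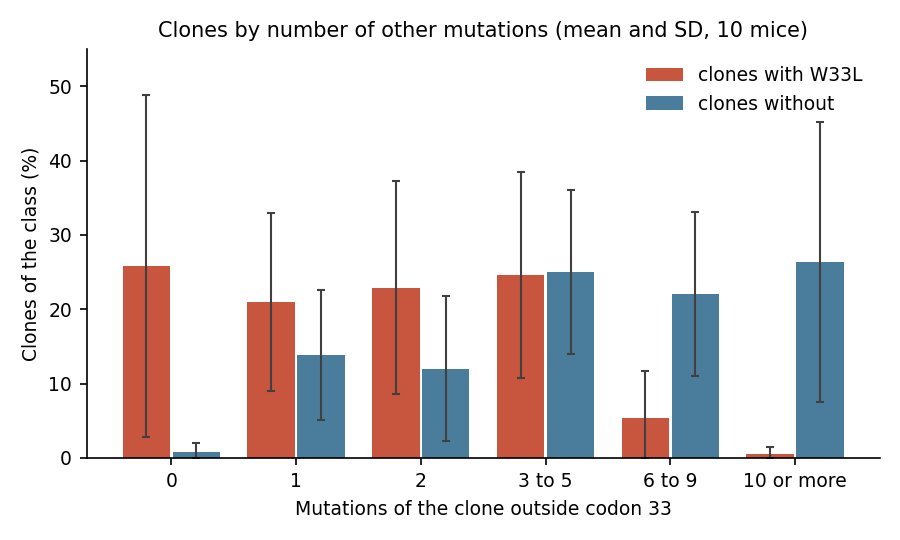
Share of the clones of a class (y axis, percent, mean and SD of 10 mice) by the number of mutations outside codon 33 (x axis), for clones with W33L and clones without. The bars of carriers are higher up to 2 mutations and lower from 6 mutations on.

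Read the other way, W33L was present in 37.1% of the clones with 1, 45.1% of those with 2 and 36.4% of those with 3 to 5 other mutations when the 10 mice were added up. It was present in 13.3% of those with 6 to 9 and in 0.989% of those with 10 or more, that is in 2.17 of 219.6 clones.

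G98T lay below the median substitution of the same mice, in a comparison that is not separate from the low load of its carriers. A heavily mutated clone is counted under many substitutions, so that clones with a given substitution mostly had more other mutations than clones without it. Substitutions outside codon 33 were compared in each mouse that had at least 5 clones with and without them. Of the 241 pairs of a substitution and a mouse (8 to 52 per mouse), in which a substitution counts again in every such mouse, 189 (78.4%) went with more other mutations. The median over substitutions was 3.02 ± 2.15 additional mutations (mean of 10 mice), so that G98T lay 7.48 ± 3.80 mutations below it (p = 0.00195, exact permutation test, the smallest possible). The clones without another substitution include the lightly mutated carriers of G98T, so the load difference enters both sides. In mouse 284, clones without G114A had 2.97 other mutations, and clones without G98T had 9.75. The distance and its p are therefore no support separate from the load difference. With each lineage counted at most 1 time this distance was -3.11, and with each distinct sequence counted 1 time -2.85. G98T was the lowest of all in 8 of 10 mice.

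**Figure D3:**
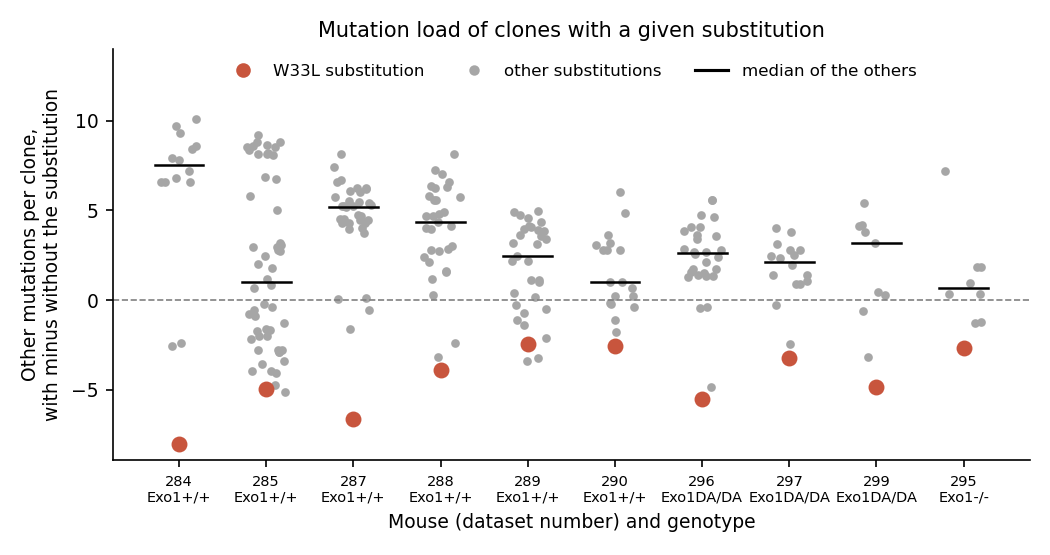
Other mutations per clone in clones with a substitution minus clones without it (y axis) in each of the 10 compared mice (x axis). Large points are G98T, small points are the other substitutions with at least 5 clones on each side, and bars their median. G98T is the lowest point in all mice but 285 and 289.

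The exceptions were A294C in mouse 285, and A294G and C93G in mouse 289. Of 20 substitutions that could be followed in at least 4 mice, G98T had the lowest mean difference, -4.47 in 10 mice. The other means rest on fewer mice, and not on the same ones. A294G, silent in arginine 98, followed with -2.04 (4 mice) and C180T with -0.66 ± 3.15 (lower in 2 of 4 mice). At the other end were G92A (S31N), with 4.79 additional mutations, and G170A (G57D), with 5.21.

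Mutations of all site classes were rarer in carriers. AID hotspots are the G:C pairs that the authors marked as WRC/GYW, and as WGCW where hotspots of both strands overlap. WGCW sites had 0.502 ± 0.413 mutations per carrier and 2.17 ± 0.867 per non-carrier, lower in 10 of 10 mice. Single-strand WRC or GYW sites had 0.514 ± 0.544 and 1.06 ± 0.717 (9 of 10 mice), and G:C pairs outside hotspots 0.334 ± 0.265 and 1.43 ± 0.658 (10 of 10). At A:T pairs, WA sites, which are hotspots of Polη, had 0.137 ± 0.184 and 0.682 ± 0.707 (10 of 10 mice), TW sites 0.0147 ± 0.0214 and 0.126 ± 0.208 (8 of 10), and A:T pairs outside these motifs 0.481 ± 0.310 and 0.978 ± 0.57 (9 of 10). Relative to non-carriers, the mutations of carriers amounted to 23.1% at WGCW sites, 48.4% at WRC or GYW sites, 20.1% at WA sites, 11.7% at TW sites and 49.2% at other A:T pairs. The 48.4% and 49.2% rested in part on single positions. Nucleotide 77 (GYW) was mutated in 17.4% of the carriers and 7.20% of the non-carriers, and nucleotide 180 (WRC) in 15.7% and 8.67%. Carrier shares were highest in mice 289 and 296 at the former and in mouse 299 at the latter. The last nucleotide of the lists, among the other A:T pairs, was mutated in 19.2% and 26.6%. The percentages without these positions were not computed.

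**Figure D4:**
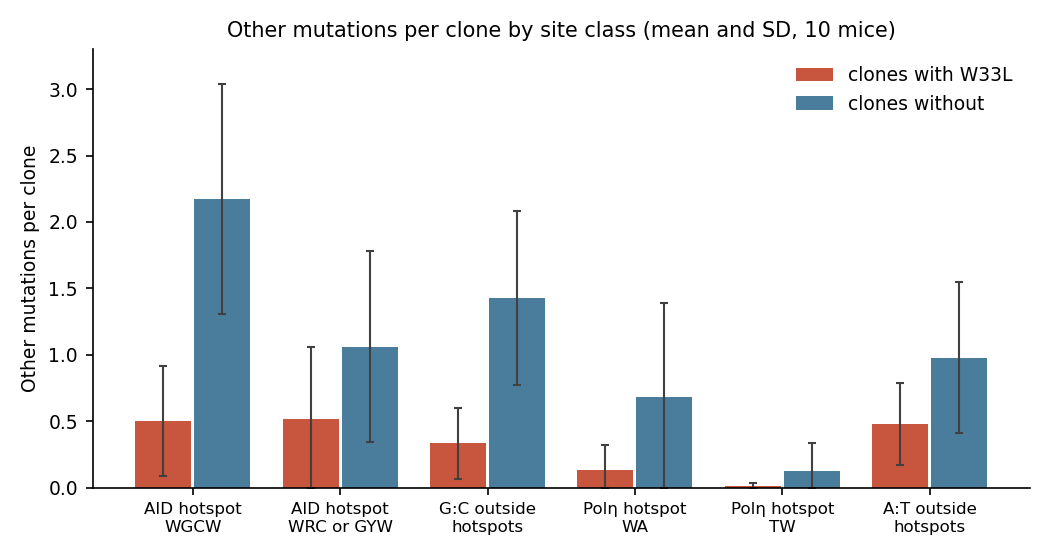
Mutations outside codon 33 per clone (y axis, mean and SD of 10 mice) by site class (x axis), for clones with W33L and clones without. Carriers are lower in each class, with the smallest gaps, relative to the level of the non-carriers, at WRC or GYW sites and at A:T pairs outside Polη hotspots. The values of carriers in these classes rest in part on single positions named in the text.

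Silent mutations were reduced as well as replacements, with 0.665 ± 0.315 against 2.09 ± 0.508 silent and 1.32 ± 0.731 against 4.36 ± 2.20 replacement mutations per clone (10 of 10 mice each). A stop codon outside codon 33 was found in 0.180% ± 0.243 of the carriers and 0.751% ± 1.16 of the non-carriers, a difference within the spread of the mice (p = 0.146, exact permutation test).

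The make-up of the other mutations was compared by shares, in mice with at least 10 mutations in the denominator of both classes. None of these 6 shares passed the test after adjustment. A:T mutations were 34.9% ± 19.4 of the other mutations in carriers and 29.2% ± 12.7 in non-carriers (n = 9, higher in 5, p = 0.25, exact permutation test, adjusted p = 0.438). In Exo1+/+ mice, the A:T share of carriers was 8.93% in the lowest (mouse 289), 36.5% in the median and 46.5% in the highest mouse (285), against 16.2%, 30.8% and 45.0% in non-carriers. In Exo1DA/DA mice it was 6.77% (mouse 296) and 49.2% (mouse 299) in carriers, against 8.57% and 24.6% in non-carriers. Differences between mice were thus larger than those between classes.

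Polη hotspots were the motif class with the same direction in each mouse. They received 22.7% ± 17.5 of the A:T mutations of carriers and 42.1% ± 18.4 of those of non-carriers, lower in 5 of 5 mice with enough mutations. With 5 mice the exact permutation test cannot give a p below 0.0625, which was the value found (adjusted p = 0.219). In Exo1+/+ mice 284, 285 and 290 the shares of carriers and non-carriers were 19.1% and 41.7%, 48.5% and 62.6%, and 6.94% and 21.3%. In Exo1DA/DA mice 296 and 299 they were 31.2% and 58.3%, and 7.98% and 26.6%. Without the minimum of 10 mutations all 10 mice entered and all 10 were lower, with 20.8% ± 17.3 against 40.0% ± 17.8 (p = 0.00195, exact permutation test, adjusted p = 0.00684), but carriers then rested on as few as 4.51 A:T mutations in a mouse. Counting each distinct sequence 1 time gave a difference of -14.1 percentage points (adjusted p = 0.0273, exact permutation test). With WA sites only the difference was -14.1 in 5 mice (p = 0.125, exact permutation test), a p at which not all 5 were lower. Without sequences similar between mice it was -17.4 in 4 mice. At these numbers of mice the test cannot reach the threshold. Without the first and last 15 nucleotides only 1 mouse had enough A:T mutations, with a difference of -11.2, so that the rest of the segment alone could not be compared over mice.

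At G:C pairs, AID hotspots received 70.6% ± 28.5 of the mutations in carriers and 69.4% ± 9.87 in non-carriers (n = 6, higher in 3, p = 1, exact permutation test). The mice pointed in opposite directions, with 18.1% against 74.7% in the Exo1+/+ mouse 284 and 97.1% against 51.3% in the Exo1DA/DA mouse 299. Transitions made up 64.5% ± 26.9 and 75.3% ± 9.71 of the G:C mutations (p = 0.312, exact permutation test). Replacements made up 63.8% ± 13.2 and 64.6% ± 11.3 of all other mutations (n = 9, p = 0.832, exact permutation test), so that silent and replacement mutations fell in nearly the same proportion.

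The complementarity-determining regions CDR1 and CDR2, without codon 33, received 16.6% ± 13.8 of the other mutations of carriers and 25.3% ± 8.66 of those of non-carriers (n = 9, lower in 6, p = 0.160, exact permutation test, adjusted p = 0.374). In Exo1+/+ mice the CDR share of carriers was 3.65% in the lowest, 13.3% in the median and 38.1% in the highest mouse. Mice 289 and 296, which shared sequences, were high with 38.1% and 38.2%, against 24.9% and 27.7% in their non-carriers. Nucleotide 77, the CDR1 position of G77A, was mutated in 64.6% and 84.9% of their carriers. Without these 2 mice the difference was -14.6 percentage points in 7 mice (p = 0.0469, exact permutation test, adjusted p = 0.164). Whether the shares behaved alike in Exo1+/+ and Exo1DA/DA mice could not be settled, since only 2 Exo1DA/DA mice had enough mutations and none of the shares could pass the test after adjustment with 10 to 28 divisions. Carriers minus non-carriers was -12.2 percentage points in Exo1+/+ and 28.2 in Exo1DA/DA mice for the AID hotspot share, 1.51 and 11.4 for the A:T share and -16.5 and 0.464 for the transition share. The -12.2 was set by mouse 284 with -56.6, since the other Exo1+/+ mice with a value lay between -1.75 and 9.47.

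Positions were then examined one by one. Of 273 positions with a mutation, 85 were mutated in at least 10 clones and 3 mice and were tested. Clones mutated at a position were less frequent among carriers at 74 and more frequent at 11 of them, with a median difference of -3.36 percentage points. After adjustment 27 positions (31.8% of those tested) were lower in carriers and 0 were higher, and at an unadjusted p below 0.05 there were 34 lower and 0 higher positions (exact permutation test over the 10 mice). Of the 27, 24 were G:C pairs (of 56 tested), 18 AID hotspots (of 35), 3 A:T pairs (of 29), 9 were led by a silent change (of 24) and 5 lay in a CDR (of 19).

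**Figure D5:**
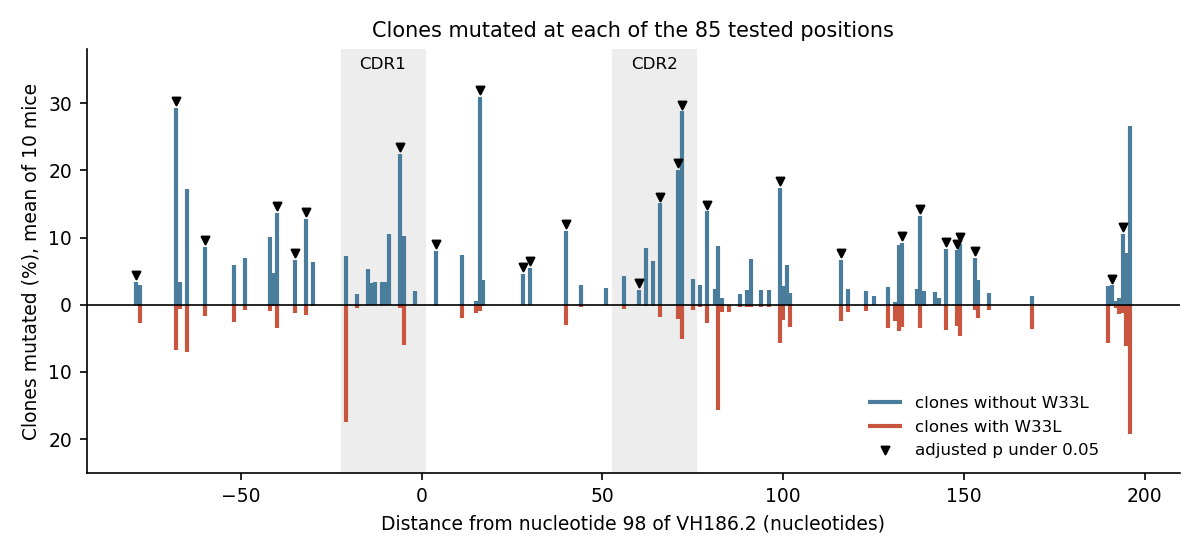
Share of clones mutated (y axis, percent, mean of 10 mice) at each of the 85 tested positions, upwards for clones without W33L and downwards for clones with W33L, by distance from nucleotide 98 (x axis, nucleotides). Triangles mark the 27 positions with an adjusted p below 0.05, and grey bands CDR1 and CDR2. The positions of G114A, G170A, G30A and G92A are tall only on the side of the non-carriers.

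Carriers had fewer mutations throughout, so a lower share at a position does not by itself set that position apart. These calls depended on which mouse was left out. The number of called positions was 31, 21 and 26 without mouse 284, 285 and 299, and it was 0 without mouse 287, 288, 289, 290, 295, 296 or 297, where the smallest adjusted p was between 0.0505 and 0.0579. When the positions were compared as shares of the other mutations of a class, which removes the lower load of carriers, no position was called (smallest adjusted p 0.102), with 15 lower and 3 higher positions at an unadjusted p below 0.05.

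The largest fall was at the third nucleotide of the codon of lysine 38, a WGCW site 16 nucleotides downstream of nucleotide 98. It was mutated in 0.962% ± 1.60 of the carriers and 30.9% ± 27.1 of the non-carriers, lower in 10 of 10 mice (adjusted p = 0.0293, exact permutation test). Carriers ranged from 0% to 4.31% and non-carriers from 4.37% (mouse 297) to 92.1% (mouse 284), so that the classes did not overlap. The leading change, G114A, is silent and was present in 3.12 carriers and 162.2 non-carriers, and G114T (K38N) in 2.01 and 83.9. Nucleotide 92, another WGCW site 6 nucleotides upstream of nucleotide 98, was mutated in 0.423% ± 1.31 of the carriers and 22.4% ± 23.0 of the non-carriers (lower in 8 of 10 mice, adjusted p = 0.0316, exact permutation test). Its leading change, G92A, exchanges serine 31 for asparagine in CDR1. Mouse 296 had the highest value in both classes, 4.16% and 70.7%, and mice 284 and 299 had none among their non-carriers.

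In CDR2, nucleotides 170 and 169 of the codon of glycine 57 fell. Nucleotide 170 (leading change G170A, G57D) was mutated in 5.15% ± 7.89 of the carriers and 28.8% ± 24.3 of the non-carriers (lower in 9 of 10 mice, adjusted p = 0.0293, exact permutation test), and nucleotide 169 (G169A, G57S) in 2.08% ± 4.23 and 20.0% ± 21.0 (lower in 10 of 10). The exception at nucleotide 170 was the Exo1+/+ mouse 285, with 17.3% of the carriers and 11.8% of the non-carriers. Its carriers had another exchange there, since G170T (G57V) was found in 22.1 carriers over the 10 mice and in 30.0 non-carriers, whereas G170A was found in 13.2 and 188.8. Nucleotide 164 (G164A, S55N) was lower in 9 of 10 mice, with 1.81% ± 3.83 against 15.1% ± 16.5.

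Framework positions fell alongside. Nucleotide 30 (G30A, silent in glutamate 10, WGCW) was mutated in 6.75% ± 6.26 of the carriers and 29.3% ± 16.9 of the non-carriers, lower in 10 of 10 mice. It was the most frequent called position among carriers, with up to 15.6% in mouse 299. Nucleotide 197 (G197A, S66N, and G197C, S66T) was mutated in 5.64% ± 7.24 and 17.4% ± 12.4 (lower in 9 of 10). At nucleotides 66, 58, 236 and 292 the differences were -11.3, -10.2, -9.82 and -9.31 percentage points, with lower values in 8, 9, 10 and 9 of 10 mice. As shares of the other mutations of a class, nucleotides 30 and 197 were lower in only 6 of 10 mice each, with 3.97% against 5.15% and 2.53% against 3.15%. By the same measure nucleotides 66, 58, 236 and 292 were lower in 8, 8, 8 and 7 of 10 mice.

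The size of several of these falls depended on how related clones were counted. With each lineage counted at most 1 time, the difference at nucleotide 170 was -6.81 percentage points and no longer passed the test (adjusted p = 0.156, exact permutation test). The calls at nucleotides 169 (-7.39), 164 (-5.85) and 236 (-3.57) were lost as well, with adjusted p of 0.0663, 0.108 and 0.0889 in the exact permutation test. The positions of G114A (-15.4), G92A (-12.6), G30A (-14.7), C66T (-4.35), G197A (-5.55) and G177A (-5.94) kept an adjusted p below 0.05, at smaller differences. Without sequences similar between mice no position was called, and the differences were -22.7 at the position of G114A, -14.5 at nucleotide 170, -14.5 at 92, -12.1 at 169, -8.18 at 164, -4.18 at 66, -5.36 at 177 and -5.69 at 197, the last with an unadjusted p of 0.193 (exact permutation test).

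Codon 59 was followed because K59R is another exchange known from NP-binding VH186.2 antibodies. K59R (A176G) was rare at this time, with 2.04 non-carriers and 0.005 carriers in the 10 mice, and nucleotide 176 was not mutated in enough clones to be tested. At nucleotide 177 of the same codon (G177A, silent) 2.76% ± 3.98 of the carriers and 13.9% ± 12.5 of the non-carriers were mutated, lower in 10 of 10 mice (adjusted p = 0.0293, exact permutation test). Nucleotide 175 (A175G, K59E) was mutated in 0.262% ± 0.741 and 2.98% ± 7.45, without passing the test (adjusted p = 0.177, exact permutation test). Mouse 287 set this value, with 2.37% of its carriers and 24.0% of its non-carriers, and without it the position was not mutated in enough clones to be tested. In the germline stretch from nucleotide 154 to 201, capitals mark codon 59 and the other positions named in the text.
Germline: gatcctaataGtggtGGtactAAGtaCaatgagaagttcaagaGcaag

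The 5 positions with the largest differences in favour of carriers did not pass the test. Nucleotide 77, 21 nucleotides upstream of nucleotide 98, was mutated in 17.4% ± 30.8 of the carriers and 7.20% ± 21.8 of the non-carriers (p = 0.262, adjusted p = 0.371, exact permutation test). Its change G77A exchanges glycine 26 for aspartate in CDR1. The position was mutated more often in carriers in 8 of 10 mice, but 64.6% in mouse 289 and 84.9% in mouse 296 contrasted with 0% to 10.9% in the other 8, and 69.1% of the non-carriers of mouse 284 were mutated there. Without mouse 284 the difference was 18.6 percentage points and passed the test (adjusted p = 0.0298), and so it did at 17.7 with each lineage counted at most 1 time (adjusted p = 0.0294), whereas without mice 289 and 296 it was -5.57 (p = 0.992, exact permutation test). Nucleotide 180 (C180T) was mutated in 15.7% ± 28.9 and 8.67% ± 12.9 (adjusted p = 0.465, exact permutation test), with 93.3% of the carriers of mouse 299, the mouse with most clones of the set C180T and A294T. Without mouse 299 the difference at nucleotide 180 was 1.65 in place of 7.02 percentage points. Nucleotides 288 (T288C), 267 (G267C) and 229 (A229C) had mean differences of 2.92, 2.24 and 1.95 percentage points. The carriers of mouse 284 had the highest shares at 288 and 267, with 30.7% and 29.9%, and without this mouse the differences turned to -0.16 and -0.84. At 229 the highest carrier shares were 12.5% in mouse 285 and 10.9% in mouse 288, and the difference without mouse 288 was 0.961. At the last nucleotide of the lists, 19.2% ± 28.1 of the carriers and 26.6% ± 26.3 of the non-carriers were mutated (adjusted p = 0.237, exact permutation test). Its leading change, A294G, was present in 22.3 carriers and 119.7 non-carriers of the 10 mice, and A294C in 3.29 and 33.5. A294T was present in 20.0 carriers and 13.9 non-carriers. Of these carriers, 14.9 were clones of mouse 299 that also had C180T. As a share of the other mutations of a class, the last nucleotide went the other way and was higher in 8 of 10 mice. It had 10.6% ± 11.1 in carriers and 4.46% ± 4.50 in non-carriers (p = 0.0117, adjusted p = 0.102, exact permutation test). Nucleotide 288 (5.0% ± 6.95 against 0.654% ± 1.29) and nucleotide 180 (8.04% ± 11.7 against 1.52% ± 2.39) were the other positions with a higher share at an unadjusted p below 0.05, each in 8 of 10 mice.

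The surroundings of codon 33 were examined as a whole after the single positions had been seen. Of the other mutations, 6.29% ± 8.04 in carriers and 20.2% ± 7.01 in non-carriers lay within 20 nucleotides of nucleotide 98 (nucleotides 78 to 118), lower in 7 of 9 mice (p = 0.0195, exact permutation test). The exceptions were the Exo1+/+ mice 287, with 17.0% against 11.4%, and 290, with 22.4% against 18.5%, where C93G was frequent among the carriers. The stretch was chosen with the values of G92A and G114A known, so this value describes these clones, and with each lineage counted at most 1 time its p was 0.0547.

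Carriers and non-carriers of a mouse also had blocks of mutations in common. In mouse 289, 7.00 carriers had at least 3 mutations downstream of codon 33, and the downstream mutations of all 7.00 were identical to those of a non-carrier of the same mouse. In mouse 296 this held for 11.5 of 17.5 carriers, in mouse 285 for 11.6 of 38.8 and in mouse 290 for 2.49 of 4.74, but in mouse 284 for 0 of 8.00. With at least 3 mutations upstream of codon 33, the upstream mutations were identical to those of a non-carrier in 1 of 5 carriers of mouse 289, 2.01 of 7.01 in mouse 296, 5.48 of 5.48 in mouse 285, 3 of 8.01 in mouse 290 and 1 of 2 in mouse 284. The corresponding shares among non-carriers were not computed. In mouse 296, 10.3 non-carriers had C63T, C66T, G92A, G114T and the downstream block G138A, G164A, G169A, G170A, C231T, C236T and C247T, and 4.0 carriers had G77A with only the end of that block, C231T, C236T and C247T. How these common blocks arose was not tested.

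Light clones allow a comparison at a similar load. Among clones with 1 to 4 other mutations, a limit set after the data were seen, carriers had 2.06 ± 0.237 and non-carriers 2.18 ± 0.300 other mutations in the 6 mice with at least 5 clones of each class (lower in 5 of 6 mice, p = 0.156, exact permutation test). Replacements made up 65.3% ± 16.2 of the other mutations in carriers and 52.9% ± 12.2 in non-carriers, higher in 5 of 6 mice (p = 0.0625, exact permutation test). The A:T share was 32.6% ± 23.1 against 43.8% ± 19.7 (p = 0.188, exact permutation test) and the CDR share 22.6% ± 14.7 against 13.9% ± 8.81 (p = 0.188). With 6 mice the smallest possible p is 0.0312, so that none of the 32 positions tested could pass after adjustment unless many reached it together. At this p, 2 were lower and 1 was higher. The higher one was nucleotide 77, with 31.7% ± 38.4 against 0.00590% ± 0.00902, higher in 6 of 6 mice (p = 0.0312, adjusted p = 0.333, exact permutation test). This mean was set by mice 289 and 296, which share sequences, with 78.3% and 83.2% of their light carriers, against 1.07% to 12.8% in the other 4 mice. Nucleotide 292 and the position of A294T were lower in 6 of 6 mice (adjusted p = 0.333 each, exact permutation test).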

How the data were processed

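Somatic hypermutation of VH186.2 was read from spleen cDNA of 18 mice. After nested PCR and paired MiSeq sequencing, the authors merged read pairs, used the molecular identifiers to remove PCR copies, annotated sequences by IMGT/HighV-QUEST and sampled every CDR3 clone by 1 sequence in each of 1000 iterations. The versions of these programs are not given in the sources used here. The deposited lists hold a nucleotide position, the base change and the motif of each mutation, for nucleotides 19 to 294. They hold no read numbers, so the depth of a mouse is unknown, and precision is set by the number of mice and clones.

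A sequence was weighted by its draws divided by 1000. Carriers and non-carriers were compared within each mouse with at least 5 clones of both classes, and the differences were tested over the mice by 2-sided exact permutation tests over sign flips, with Benjamini-Hochberg adjustment over 7 measures or over all tested positions (at least 10 clones and 3 mice). Shares needed at least 10 mutations in both denominators. The 7 measures were the mutations per clone and the shares of A:T pairs, AID hotspots, Polη hotspots, CDR1 and CDR2 (nucleotides 76 to 99 and 151 to 174), G:C transitions and replacements. Positions named are the called ones with the largest differences (at most 12), the 5 largest differences in either direction, the 3 most mutated in carriers, nucleotides 114 and 294, and codon 59. Nothing shows whether the dataset numbers, taken as mice, are separate animals beyond their number per genotype, which equals that of the labels. The members, measures and lists were chosen with earlier results of these data known. The stretch around codon 33, clones with 1 to 4 other mutations, mice 289 and 296 left out, and sets of at least 2 mutations shared between mice were added after the data were seen. Alternatives also covered the limits on clones, the counting of sequences and lineages (at least 4 mutations, Jaccard index of at least 0.7), sequences similar between mice (at least 6 mutations, the same index), the first and last 15 nucleotides, the definition of carriers and hotspots, and each mouse left out in turn. The steps were tested on simulated data. Python 3.11.15, NumPy 2.4.6, SciPy 1.17.1, pandas 2.3.3 and Matplotlib 3.10.9 were used. The gene symbol is that of a RefSeq table of GRCm38.p6, and no genome was used.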

Additional observations from a re-analysis of the deposited data

Results flagged for a closer look

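The AID hotspot share of G:C mutations in the Exo1+/+ mouse 284 stood apart from the other mice of its genotype. Carriers minus non-carriers was -56.6 percentage points there and between -1.75 and 9.47 in the other 3 Exo1+/+ mice with a value, so that the gap made up 0.830 of the whole range of the 4 mice. Its carriers had 23.6 G:C mutations outside codon 33 per iteration and its non-carriers 79.0, the latter from 13.0 clones. Of 24 groups of values examined in this way 1 was marked, and chance marks about 1 in 20.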

How the results depend on the processing

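The lower number of other mutations in carriers and the distance of G98T from the median substitution kept their direction under all alternatives run, but not their size. With each lineage counted at most 1 time, the load difference was -2.47 and the distance of G98T -3.11, and with each distinct sequence counted 1 time the distance was -2.85. The load lost its call with at least 10 clones of each class (-4.28, adjusted p = 0.0547), with each distinct sequence counted 1 time (-2.54, adjusted p = 0.116) and without mice 289 and 296 (-4.59), by exact permutation tests. With 1 mouse left out it was between -4.69 and -4.07 (highest adjusted p 0.0273), and the distance of G98T between -7.95 and -6.59.

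The shares, none of which was called, changed sign in several settings, in percentage points. The A:T share was -1.76 without sequences similar between mice, -1.53 without the ends, -2.83 as a mean of single clones and -11.2 in clones with 1 to 4 other mutations. The AID hotspot share was -5.12 with WRCY/RGYW hotspots, -3.14 without mice 289 and 296 and -0.47 without sets of at least 2 mutations found in another mouse. The Polη hotspot share was called with each distinct sequence counted 1 time (-14.1) and without a minimum denominator (-19.2). The CDR share was 0.53 with each distinct sequence counted 1 time, 0.244 with each lineage counted at most 1 time and 8.69 in clones with 1 to 4 other mutations, where the transition share was 6.68. The replacement share was 5.85 with each distinct sequence counted 1 time, 1.95 without similar sequences, 3.91 by lineages, 2.51 as a mean of single clones, 12.3 in clones with 1 to 4 other mutations and 6.21 with the clones of the mice pooled. With 1 mouse left out, the A:T share was between 3.26 and 7.90, the AID hotspot share between -7.69 and 12.8, the Polη share between -20.7 and -17.4, the CDR share between -11.4 and -5.24, the transition share between -15.1 and -4.41 and the replacement share between -2.59 and 1.29.

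The share within 20 nucleotides of nucleotide 98 was no longer past the threshold with each distinct sequence counted 1 time (-8.03), by lineages (-12.7), without the ends (-19.1), in clones with 1 to 4 other mutations (-10.0), without mice 289 and 296 (-12.8) and without sets found in another mouse (-19.0), and with 1 mouse left out it was between -16.4 and -12.6. The number of called positions was 47 with at least 2 clones of each class and 0 with at least 10 clones, each distinct sequence counted 1 time, no similar sequences, shares of the other mutations, all positions, clones with 1 to 4 other mutations, without mice 289 and 296, or without sets found in another mouse, and between 0 and 31 with 1 mouse left out. At an unadjusted p below 0.05 these settings, in the order given for the 0, had 23, 25, 20, 15, 45, 2, 27 and 19 lower positions (exact permutation test).

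The difference between Exo1+/+ and Exo1DA/DA mice in the load changed sign, within the spread of the mice, with at least 2 clones (0.570), at least 10 clones (0.0467), distinct sequences (0.0169), no similar sequences (0.0454), lineages (0.0701), medians over clones (0.833) and without sets found in another mouse (0.697), and was between -0.70 and 0.451 with 1 mouse left out. Nucleotide 77 changed sign without mice 289 and 296 (-5.57). Nucleotides 170, 197 and 236 did so in clones with 1 to 4 other mutations (2.37, 5.73 and 2.13), nucleotide 267 with at least 2 clones (-1.05) and by lineages (-1.49), and nucleotide 288 by lineages (-1.54). With 1 mouse left out nucleotide 267 was between -0.836 and 2.76 and nucleotide 288 between -0.16 and 4.02. The causes were not tested. Carriers and non-carriers were paired within mice throughout. Between genotypes, a pairing by the replicate numbers of the labels could not be made. No paired analysis was possible because the dataset numbers of the lists carry no animal number of the labels. The number of mice limits the tests, and 4 of 10 mice had too few G:C mutations among carriers for the hotspot share.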
